A study of Mus musculus with 2 samples.

Results

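The cells described here are C1q-high macrophages of EO771 tumors, 75 of the 1000 cells of the tumor library and of the 2806 cells of both libraries. They were chosen by their UMI counts (unique molecular identifiers, each standing for 1 captured transcript). A cell had to hold at least 10 UMIs of Lyz2, at least 2 UMIs of Csf1r, Cd68 and Adgre1 together, no UMI of Cd3e, Cd3d or Cd3g, at most 4 UMIs of Rhox5 and at least 10 UMIs of C1qa, C1qb and C1qc together. They were set against the 357 cells of the same gate with a C1q sum of at most 9 UMIs, called C1q-low here, and against the 53 cells that the same rule finds in the normal gland. The levels of the genes in the rule chose the cells and are given only as a description.

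The study profiled single cells of 2 mouse libraries with droplet-based 3' RNA sequencing, 1 library per group. Per the labels, both came from female C57BL6/J mice, 8 weeks old, that carried Cdh5Cre-ERT2:ZSGreenl/s/l and had been given tamoxifen, so that the Cdh5 promoter of endothelial cells drives the Cre behind ZSGreen. EO771, a syngeneic mammary tumor line, had been put into the mammary fat pad as 1000000 cells and grown for about 3 weeks. Live ZSGreen-positive cells were sorted from these tumors (TEC, tumor endothelial cells) and from normal mammary glands (NEC, normal endothelial cells). The number of mice behind each library is not given in the sources used here.

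C1q is the recognition molecule of the classical complement pathway, built from the chains of C1qa, C1qb and C1qc, and binds antibody complexes, dying cells and debris. Most C1q is made by tissue macrophages rather than by the liver. Monocytes that enter a tissue from blood carry Ly6c2 and Plac8 and can lose these as they become macrophages, while genes of lysosomes, lipid export and scavenging increase.

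Markers outside the rule were those of leukocytes and macrophages, and most endothelial markers, which the label of the sort calls for, were at 0. Of the 75 cells 52 held a UMI of Ptprc, the pan-leukocyte gene CD45, which stood at 222 CPM (counts per 1000000 counts of the group). Ms4a7, a macrophage membrane protein gene outside the rule, was present in 59 of 75 cells. Lyz2 and Csf1r are genes of the rule, so their levels are a description only. Csf1r, the receptor gene for the macrophage growth factor M-CSF, stood at 200 CPM, next to 198 CPM in C1q-low cells. Of 11 endothelial marker genes in the table, 7 were at 0 in the 75 cells, Cdh5 among them, and the list summed to 48.9 CPM against 62.1 CPM in C1q-low cells. Both groups are therefore described as leukocytes that were in the sorted fraction.

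The TEC library held 16444540 UMIs, with a median of 8596 and a minimum of 6376 per cell, and the NEC library 5228289 UMIs in 1806 cells, with a median of 2263 and a minimum of 1157. C1q-high and C1q-low cells of TEC were of like depth, with medians of 7531 and 7568 UMIs, and each cell was thinned at random to 6000 UMIs before they were compared. The libraries shared 2 cell barcodes, 0 of them in the gate, and Scrublet, a doublet caller, marked 3 TEC cells, 1 of them C1q-high. Since each group is a single library, no test between groups and no replicate check can be made. Every interval is a 95% interval for counting error only, and 2-fold is a rule of size.

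Most gate cells of the tumor held no C1q, and 75 of 432 had 10 or more UMIs of it. The C1q sum of the 75 cells, as deposited, had a median of 35 UMIs, quartiles of 16.5 and 67 and a range of 10 to 338. In C1q-low cells the median was 0, and 340 of 357 cells had 0 to 2 UMIs. Near the threshold, 17 cells lay just inside it with 10 to 14 UMIs and 12 cells just outside it with 5 to 9. At 6000 UMIs per cell all 3 genes were present in 63 of 75 C1q-high cells (84%) and in 3 of 357 C1q-low cells (0.840%), and 312 C1q-low cells had no C1q UMI at all. These counts follow in large part from the rule, which cuts on the sum of the 3 genes.

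**Figure D1:**
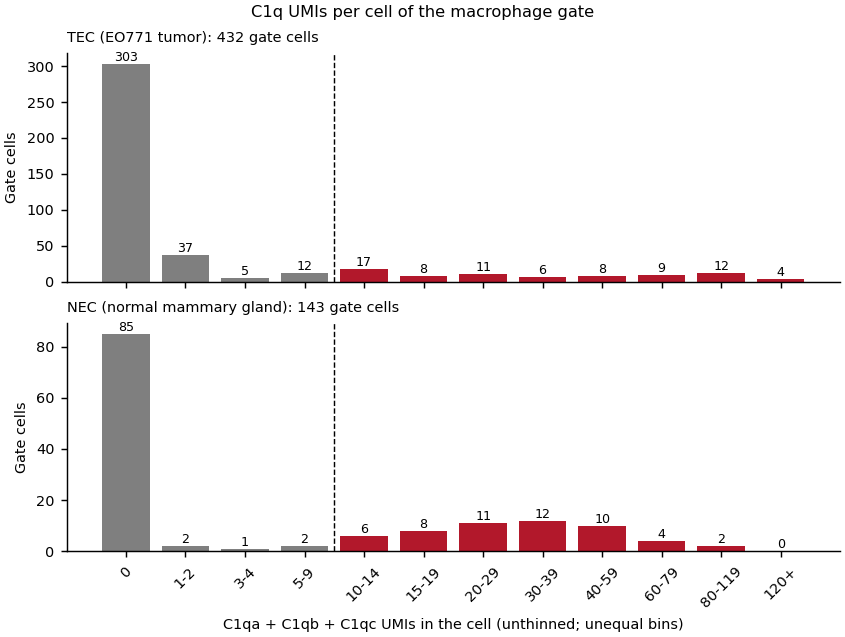
Number of gate cells (y axis) by their summed UMIs of C1qa, C1qb and C1qc (x axis, unequal bins), for TEC above and NEC below; the dashed line is the threshold of 10 UMIs and the number of cells stands on each bar. Most cells of both libraries hold 0 UMIs, and 75 of 432 TEC and 53 of 143 NEC gate cells lie right of the line.

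C1q UMIs were rare in TEC cells with markers of other cells and little Lyz2. In a T-cell set of TEC, 46 cells with at least 2 Cd3 and at most 2 Lyz2 UMIs (median 9385 UMIs), C1qa was present in 0 cells and C1qb in 1. In 111 cells with at least 10 Rhox5 and at most 9 Lyz2 UMIs (median 43380 UMIs), C1qa was present in 0 cells and C1qb and C1qc in 5 each (4.5%). In C1q-low cells the shares of the 3 genes were 5.04%, 5.88% and 6.72%. Ms4a7 was present in 6.52% of the T-cell set and 5.41% of the Rhox5 set, against 78.7% of C1q-high and 36.4% of C1q-low cells. Shares in cells that should lack the gene are taken as background, and the part of free RNA in them was not tested. The T-cell and Rhox5 sets were chosen for few Lyz2 UMIs, which leaves out cells that also carry macrophage RNA. They therefore cannot show how far C1q was spread over the library. For example, 14 TEC cells with at least 10 C1q UMIs held a Cd3 UMI and are outside the T-cell set.

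The 3 genes lie side by side on chromosome 4, all on the minus strand, within 18675 bases (GRCm38, chr4:136880129-136898803, as GENCODE annotates them). C1qb takes up chr4:136880129-136886187, C1qc chr4:136889804-136893065 and C1qa chr4:136895917-136898803. In summed counts, C1qa stood at 1824 CPM (1702 to 1954) in C1q-high and 12.6 CPM (8.31 to 18.3) in C1q-low cells. For C1qb these levels were 1931 and 21.0 CPM, and for C1qc 1627 and 14.9 CPM. The ratios of 145, 91.9 and 109 restate the rule. The promoters of C1qb (chr4:136886151-136886450) and C1qc (chr4:136892865-136893164), from 250 bases before to 50 after the RefSeq start (GRCm38.p6, minus strand), are printed because the C1q genes define the cells and lie in 1 cluster. Capitals mark GAGGAA, the purine box of PU.1-type factors, and TGCTGA, a half-site of MAF factors, each searched on both strands (as TTCCTC and TCAGCA on the other), with no overlap between them.
C1qb: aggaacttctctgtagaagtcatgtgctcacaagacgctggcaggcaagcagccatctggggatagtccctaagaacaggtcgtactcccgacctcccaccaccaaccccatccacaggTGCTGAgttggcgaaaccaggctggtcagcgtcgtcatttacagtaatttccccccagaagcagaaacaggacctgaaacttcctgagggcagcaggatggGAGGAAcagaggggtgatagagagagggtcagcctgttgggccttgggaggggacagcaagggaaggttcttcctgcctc
C1qc: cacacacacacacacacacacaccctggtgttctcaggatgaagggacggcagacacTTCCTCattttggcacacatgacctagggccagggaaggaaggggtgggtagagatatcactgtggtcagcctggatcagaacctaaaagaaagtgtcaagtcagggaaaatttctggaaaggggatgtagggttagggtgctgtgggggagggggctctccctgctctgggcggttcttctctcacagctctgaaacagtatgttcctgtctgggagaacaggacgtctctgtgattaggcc
Both windows hold 1 purine box, on opposite strands, and the C1qb window also holds 1 MAF half-site. Of 32851 mouse promoters of this length, 28.3% hold the purine box and 19.5% the half-site, so the matches are a description of these letters only. Genes of such factors are expressed in the cells: Spi1, which encodes PU.1, stood at 462 CPM in C1q-high and 447 CPM in C1q-low cells (ratio 1.03, 0.89 to 1.20). Maf, of the other family, stood at 95.6 and 54.2 CPM (ratio 1.76, 1.21 to 2.52).

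C1q-high cells of the tumor differed from C1q-low cells in few genes. Of 4374 genes with at least 50 UMIs over both sums, 80 were at least 2-fold higher (1.83%), 148 at least 2-fold lower (3.38%) and 4146 neither, and the median log2 ratio was -0.01. A second seed of the thinning gave 83 higher and 125 lower. At equal levels a gene with 50 UMIs would have 8.68 of them in C1q-high cells. Counting error thus weighs on both counts, and no order is read from them. Outside the genes of the rule, 77 were at least 2-fold higher, 10 of them at least 4-fold, and 16 were at least 4-fold lower. Genes of resident macrophages, of lipid export and of lysosomes were among the higher ones, and genes of classical monocytes among the lower ones.

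Some resident and mature macrophage genes were higher. Folr2, a folate receptor gene of resident macrophages (chr7:101839988-101857194), had 41 UMIs in 16 of 75 C1q-high cells and 11 UMIs in 8 of 357 C1q-low cells. That is 91.1 CPM (65.4 to 124) against 5.14 CPM (2.56 to 9.19), or 17.7-fold (8.96 to 38.3), so most C1q-high cells had no Folr2 UMI. Ms4a7 (chr19:11321039-11336146) was more widespread: its median was 3 UMIs per C1q-high cell, with quartiles of 1 and 8 and a maximum of 38, and 0 UMIs per C1q-low cell. It stood at 938 and 246 CPM, 3.81-fold higher (3.35 to 4.34). Cd72, a C-type lectin-like receptor gene, was 2.82-fold higher (2.25 to 3.52), and Slamf9, a SLAM family receptor gene, 2.54-fold (1.88 to 3.4). Of 13 mature macrophage genes compared, 4 were at least 2-fold higher and none lower (median log2 ratio 0.62): Cd72, Pf4, Ms4a7 and Cd81, a tetraspanin gene at 62.2 and 21.0 CPM. Fcgr1, the high-affinity IgG receptor gene, was at 800 and 739 CPM. Of 8 resident scavenger and lectin genes, 3 were higher and 0 lower (median 0.75): Folr2, Mrc1, the mannose receptor gene, at 120 against 49.0 CPM (2.45-fold, 1.73 to 3.43), and Sepp1, a selenoprotein gene, at 211 against 103 CPM (2.06-fold, 1.60 to 2.63, and 1.78-fold without 1 cell). Cd163, Lyve1 and Timd4, further genes of resident macrophages, had 0 UMIs in the 75 cells.

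Some lipid genes were higher too. Apoe, for the lipid carrier apolipoprotein E (chr7:19696109-19699188), was present in 51 of 75 C1q-high and 155 of 357 C1q-low cells. Its level was 1651 CPM (1535 to 1774) against 395 CPM (369 to 422), 4.18-fold higher (3.78 to 4.62), while single cells ranged from 0 to 79 UMIs in the first group and from 0 to 76 in the second, so the groups overlap. The higher level of Apoe did not hold for all C1q-high cells. In the 25 cells with 10 to 19 C1q UMIs Apoe was at 233 CPM, below the 370 CPM of cells with 0 to 2. In cells with 80 or more it was at 3146 CPM. Lpl, for lipoprotein lipase, was 4.09-fold higher (3.19 to 5.25), Pltp, for the phospholipid transfer protein, 4.76-fold (2.82 to 8.02), and Trem2, a receptor gene for lipids, 2.71-fold (2.11 to 3.47). Abca1, a cholesterol exporter gene, was at 55.6 and 22.4 CPM (2.48-fold, 1.46 to 4.10), and Nr1h3, for the sterol sensor LXR-alpha, at 48.9 and 23.3 CPM (2.09-fold, 1.21 to 3.52, and 1.83-fold without 1 cell). These 6 are the members at least 2-fold higher among 22 lipid handling genes compared, with 0 lower and a median of 0.20. Not every lipid gene reached 2-fold: Fabp5, a fatty-acid binding protein gene, had a ratio of 1.87 (1.76 to 1.98) and Plin2, for the lipid droplet coat, 1.22. Cd9 and Spp1, for osteopontin, went the other way, with ratios of 0.88 and 0.55 (0.49 to 0.62 for Spp1).

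Lysosomal genes were shifted by small amounts. Of 28 compared, 2 were at least 2-fold higher and 0 lower, and the median was 0.29. Lgmn, for the endosomal protease legumain, was at 1673 and 826 CPM (2.03-fold, 1.86 to 2.21), with medians of 9 and 3 UMIs per cell, and Cd63, a lysosomal tetraspanin gene, at 700.0 and 230 CPM (3.04-fold, 2.63 to 3.51). Acp5, for a lysosomal acid phosphatase, was 2.98-fold higher (2.05 to 4.29). The cathepsin genes Ctsb, Ctsd and Ctsl had ratios of 1.78, 1.63 and 1.55, Ctss 1.24 and Ctsc 0.92. Over 15 settings the ratio of Lgmn ranged from 1.64 to 2.91 and was short of 2-fold in 2 of them. Without its richest cell it was 1.97. Abhd12, for a lipase of lysophosphatidylserine, was 2.96-fold higher (2.05 to 4.25), and Serpinb6a, a protease inhibitor gene with close relatives in the genome, 4.10-fold (2.30 to 7.26). Serpinb6a had 2 UMIs in the C1q-high cells with 10 to 39 C1q UMIs and 23 in those with 40 or more.

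**Figure D2:**
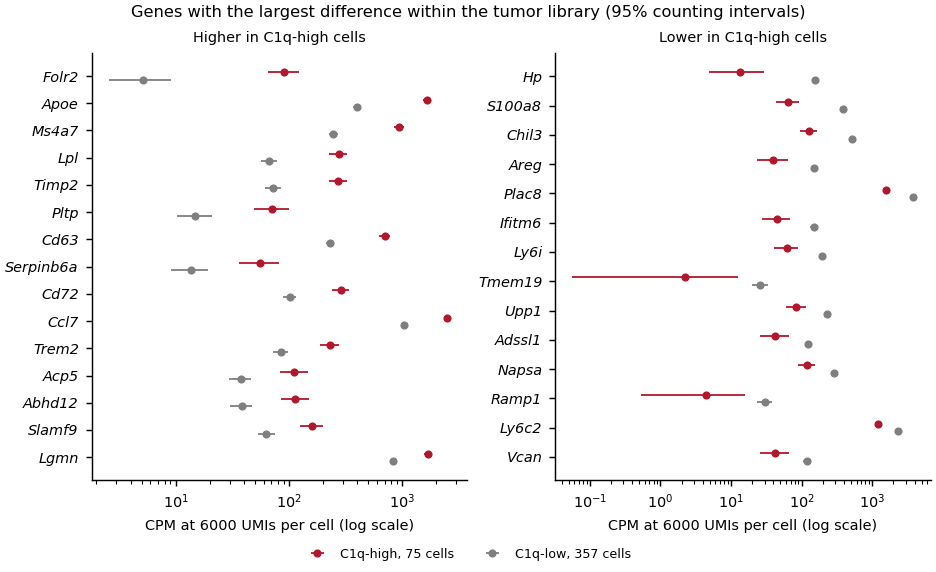
Levels (CPM at 6000 UMIs per cell, log scale) of the 15 genes with the highest ratio bounds and 14 of the 15 with the lowest, in C1q-high (red, 75 cells) and C1q-low cells (grey, 357 cells) of the tumor, with 95% Poisson intervals. Folr2 lies at 91.1 against 5.14 CPM and Hp at 13.3 against 155 CPM.

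Matrix genes and chemokines were mixed, and single cells weighed on several. Timp2, an inhibitor of matrix metalloproteinases, was at 271 and 72.8 CPM (3.72-fold, 2.91 to 4.75). It was also present in 98 of the 111 Rhox5 cells, at 351 CPM, and markers of those cells (5 genes) summed to 35.6 CPM in C1q-high and 22.9 CPM in C1q-low cells. Their part in the Timp2 level was not tested. Mmp12, for macrophage elastase, and Mmp13, for a collagenase, had ratios of 2.06 and 2.13, and 1.62 and 1.8 without the cell richest in each, and Timp1 was 2.71-fold lower (1.38 to 6.07). Of 12 such genes 3 were higher and 1 lower (median 0.05), and of the 3 Timp2 stayed 2-fold higher without its richest cell. Ccl7, a ligand of the monocyte receptor CCR2, was at 2482 and 1029 CPM (2.41-fold, 2.24 to 2.59), whereas Ccl2, for another ligand of that receptor, was at 1704 and 1534 CPM (1.11-fold, 1.03 to 1.20). Of 18 chemokine genes compared 5 were higher and 1 lower (median 0.33): Ccl7, Pf4, Ccl8, Ccl24 and Ppbp against Cxcl1. A C1q-high cell with 10 C1q UMIs of 6719 in all held 452 UMIs of Pf4, 558 of Ccl8 and 24 of Ppbp, as deposited. It carried 41.9% of the Pf4 and 66.1% of the Ccl8 UMIs of the thinned group, and leaving it out took the Ppbp UMIs from 40 to 20. Without it, Pf4 was 4.05-fold higher (3.61 to 4.53) in place of 6.88-fold, Ccl8 41.3-fold in place of 120-fold and Ppbp 8.77-fold in place of 17.3-fold. Another cell held 36.0% of the Ccl24 UMIs, and Ccl24 was 2.82-fold higher without it in place of 4.35-fold.

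Genes of classical monocytes were lower. Plac8 (chr5:100553725-100572245) had a median of 3 UMIs per C1q-high cell and 16 per C1q-low cell, and stood at 1553 CPM (1440 to 1673) against 3767 CPM (3685 to 3850), 2.42-fold lower (2.24 to 2.62). Ly6c2 (chr15:75108158-75111970), whose UMIs cannot be told apart with certainty from those of its near-identical neighbors Ly6c1 and Ly6i, was at 1227 and 2351 CPM, 1.92-fold lower (1.76 to 2.10), and so short of 2-fold. Its median was 1 UMI per C1q-high cell and 7 per C1q-low cell. It was still present in 56 of 75 C1q-high cells, and 43 of them held Ly6c2 and Ms4a7 together. Chil3, a chitinase-like gene, was 4.11-fold lower (3.15 to 5.47), Vcan, for the proteoglycan versican, 2.80-fold (1.75 to 4.72), and Hp, for haptoglobin, 11.6-fold (5.28 to 31.9). Of 14 classical monocyte genes, 6 were at least 2-fold lower and 0 higher (median -0.94). The same list was present at a median of 17 UMIs per C1q-high and 53 per C1q-low cell.

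Other lower genes had several roles. Areg, for the growth factor amphiregulin, was 3.76-fold lower (2.34 to 6.42), Upp1, for uridine phosphorylase, 2.71-fold (1.95 to 3.88), Napsa, for an aspartic protease, 2.37-fold (1.79 to 3.20), and Adssl1, for an enzyme of AMP synthesis, 2.96-fold (1.86 to 5.0). Ifitm6 and Ly6i were 3.33-fold and 3.11-fold lower, Tmem19 11.8-fold on 1 and 56 UMIs, and Ramp1, for a subunit of CGRP receptors, 6.72-fold on 2 and 64 UMIs. S100a8, for a subunit of calprotectin, was at 64.4 and 381 CPM, 5.91-fold lower (4.08 to 8.88). Neutrophil markers as a whole summed to 164 CPM in C1q-high and 693 CPM in C1q-low cells, and 1 C1q-low cell held 16.0% of the latter. Per cell the list ranged from 0 to 6 UMIs in C1q-high and from 0 to 238 in C1q-low cells, with a median of 1 in both, and Cxcr2 was at 0 in C1q-high cells. The part of neutrophil transcripts in the S100a8 level was not tested.

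Without the gate cells that held any UMI of 10 genes of other cell types (S100a8 and Rhox5 among them), 29 C1q-high and 132 C1q-low cells remained. There Ccl7 had a ratio of 1.36, Cd63 of 1.77, Lgmn of 1.64, Slamf9 of 1.82, Ifitm6 of 0.51, Vcan of 0.59 and Ramp1 of 0.80, none of them 2-fold. Adssl1 had a ratio of 0.53 with the second seed of the thinning. Of the 30 genes with the highest or lowest bounds, 21 were past 2-fold in each setting run on them, 15 settings each and 14 for S100a8, and Ly6c2 was short of it in the main setting already.

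**Figure D3:**
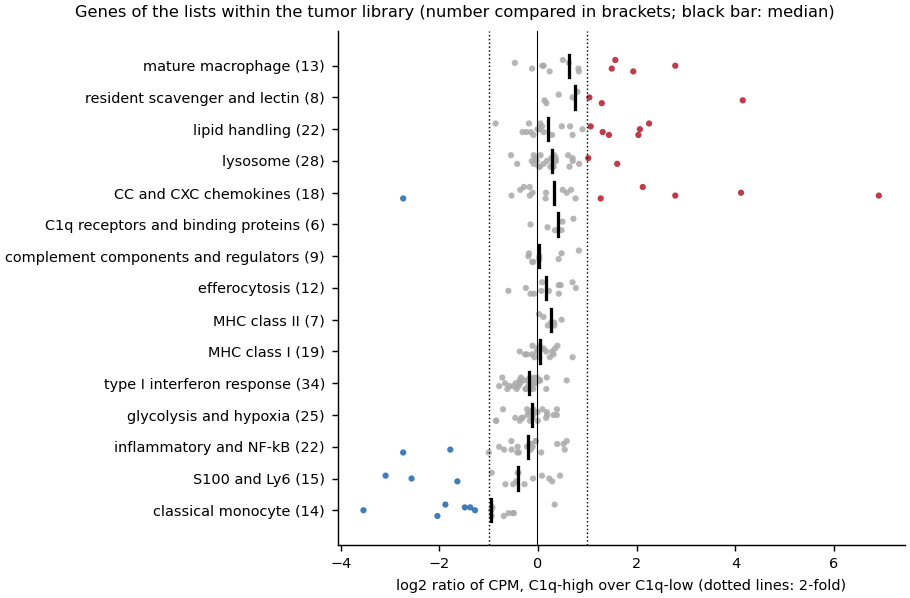
log2 ratio of CPM (x axis, C1q-high over C1q-low) of each gene compared in 15 lists (y axis, number of genes in brackets); red and blue points are at least 2-fold higher and lower, black bars are list medians and dotted lines mark 2-fold. The classical monocyte genes reach lowest and have the lowest median, -0.94, and the resident scavenger genes the highest, 0.75.

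The rest of complement did not follow C1q. Of 9 components and regulators compared besides C1q, 0 were 2-fold higher and 0 lower (median 0.03): C3, the central component, was at 53.3 and 57.0 CPM, Cfp, for properdin, at 438 and 430 CPM, and Cfb, for factor B, had a ratio of 1.33 (0.86 to 2.02). C3ar1, the receptor gene for the C3a fragment, stood at 371 and 209 CPM (ratio 1.77, 1.48 to 2.12). Receptors and binding proteins of C1q gave 0 higher and 0 lower of 6, with a median of 0.41, and Calr, for calreticulin, had a ratio of 1.27 (1.10 to 1.46). Of 12 efferocytosis genes, for the uptake of dying cells, 0 were higher and 0 lower (median 0.15), and Mertk, a receptor of that process, had 2 UMIs in either group.

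Antigen presentation, interferon response and metabolism were near the level of C1q-low cells. Of 7 MHC class II genes 0 were past 2-fold (median 0.26), and H2-Ab1 was at 2987 and 2486 CPM. Dendritic cell markers, which could carry class II transcripts, summed to 20 CPM in C1q-high and 72.4 CPM in C1q-low cells, and Flt3 and Zbtb46 were at 0 in the former. Of 19 MHC class I genes 0 were past 2-fold (median 0.03), and the same held for 34 type I interferon response genes (median -0.18, Isg15 at 1660 and 1980 CPM) and 25 glycolysis and hypoxia genes (median -0.11). Of 15 interferon-gamma response genes 0 were higher and 1 lower (Upp1, median -0.12), and of 22 inflammatory genes 0 were higher and 2 lower, Il1a and Cxcl1 (median -0.19). Il1b, for the cytokine interleukin-1 beta, was at 2424 and 3244 CPM. Of 27 macrophage transcription factor genes only Nr1h3 was 2-fold higher and 0 were lower (median 0.11). Of 21 chemokine and growth factor receptor genes 0 were past 2-fold (median -0.22), and of 17 Fc receptor and adaptor genes 0 were higher and 2 lower, Trem1 and Trem3 (median 0.17). S100 and Ly6 genes gave 0 higher and 3 lower of 15 (median -0.41), and the Ms4a family 1 higher, Ms4a7, and 0 lower of 7 (median -0.06).

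Lists on other themes had few members past 2-fold. Of 10 arginase and alternative activation genes 3 were higher (Mrc1, Ccl24 and Pdcd1lg2) and 1 lower (Chil3), with a median of 0.09, and Arg1 was at 136 and 201 CPM, 1 cell holding 32.8% of its C1q-high UMIs. Of 17 T-cell ligand and checkpoint genes 2 were higher, Il18bp, for the interleukin-18 binding protein (2.43-fold, 1.70 to 3.42), and Pdcd1lg2, for PD-L2 (2.13-fold, 1.13 to 3.87, and 1.52-fold without 1 cell), and 0 lower (median 0.04), while Cd274, for PD-L1, had a ratio of 1.25 (0.95 to 1.62). The study's title names fibrinolysis and TGF-beta. Of 13 fibrinolysis and coagulation genes 1 was higher, Procr, of which 1 cell held 61.1% and whose ratio was 0.98 without it, and 2 were lower, Serpinb2 and Serpinb6b (median -0.32). Plaur, the urokinase receptor gene, was at 524 and 810 CPM, 1.54-fold lower (1.35 to 1.78). Of 12 TGF-beta system genes 0 were past 2-fold (median -0.14), and Tgfbi was at 1809 and 1814 CPM. Of 9 heme and iron genes 0 were higher and 1 lower, Lcn2 (median 0.21). Non-classical monocyte genes gave 1 higher, Cd300e (1.84-fold without 1 cell), and 1 lower, Itgal, of 4.

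Markers of other cell types were low in C1q-high cells, where 5 pan-leukocyte genes summed to 4064 CPM. T or NK markers (11 genes) summed to 31.1 CPM against 17.3 CPM in C1q-low cells, with 64.3% of the former in 1 cell, and the Cd3 genes are at 0 by the rule. B or plasma markers (7 genes) summed to 20 against 19 CPM, with Ms4a1 at 0. Fibroblast markers (8 genes) summed to 109 and 95.2 CPM with Dcn, Col1a1 and Col1a2 at 0 in C1q-high cells, and epithelial or mammary tumor markers (6 genes) to 8.89 and 10.7 CPM with Epcam and Krt18 at 0. Markers of mast cells or basophils were at 2.22 CPM and those of pericytes or smooth muscle at 4.44 CPM. Their part in the results was not tested. A further 12 cells met the Lyz2, macrophage gene and C1q parts of the rule but held a Cd3 UMI and are not counted here. The Rhox5 limit was not applied to them.

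The C1q-high cells varied among themselves with the C1q count. Summed classical monocyte genes stood at 6468 CPM in the 42 cells with 10 to 39 C1q UMIs and at 2394 CPM in the 33 cells with 40 or more, and lysosome genes at 16929 and 25051 CPM. The mature macrophage list was at 7635 and 8556 CPM. Of the 612 UMIs of its member Pf4 in cells with 10 to 39 C1q UMIs, 1 cell held 409. The resident scavenger list was at 2508 and 2066 CPM, but its members did not move together. Clec4n went from 1706 to 535 CPM, while Mrc1 went from 75.4 to 177 CPM and Sepp1 from 95.2 to 359 CPM. Between the same cells, Ly6c2 was at 1817 and 475 CPM, 3.83-fold lower (3.06 to 4.83) in the latter, Plac8 at 2325 and 571 CPM (4.07-fold lower, 3.33 to 5.03), and Slc7a11, a cystine transporter gene, at 786 and 146 CPM (5.36-fold lower, 3.62 to 8.22). Ms4a7 was at 472 and 1530 CPM (3.24-fold higher, 2.61 to 4.04), Apoe at 825 and 2702 CPM (3.27-fold, 2.78 to 3.86), Trem2 at 103 and 389 CPM (3.77-fold, 2.39 to 6.13), Ccl7 at 1127 and 4207 CPM (3.73-fold, 3.26 to 4.29) and Lgmn at 1099 and 2404 CPM (2.19-fold, 1.88 to 2.55). Folr2 was at 31.7 and 167 CPM. The split of C1q-high cells at 40 UMIs was chosen with these values known.

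**Figure D4:**
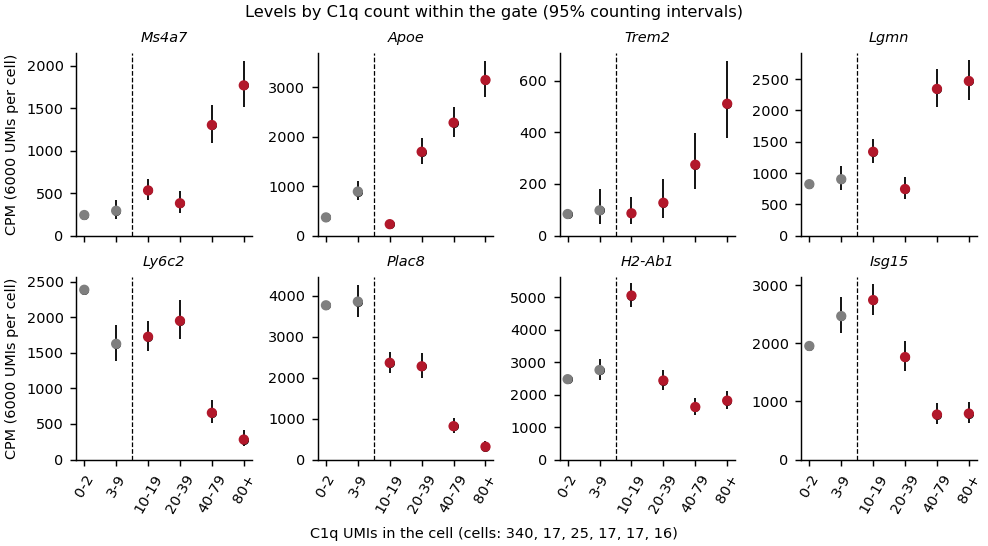
Levels (y axis, CPM at 6000 UMIs per cell, with 95% Poisson intervals) of 8 genes in gate cells of TEC by C1q UMIs (x axis); grey points are C1q-low and red points C1q-high bins, of 340, 17, 25, 17, 17 and 16 cells. Ly6c2 and Plac8 are low from 40 UMIs on, at 657 and 814 CPM in the bin of 40 to 79, where Ms4a7, Lgmn and Trem2 are high.

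The steps were not even. From the bin of 0 to 2 C1q UMIs through those of 3 to 9, 10 to 19, 20 to 39 and 40 to 79 to that of 80 and more, Ly6c2 stood at 2387, 1627, 1727, 1951, 657 and 281 CPM. Trem2 stood at 83.8, 98.0, 86.7, 127, 275 and 510 CPM in the same order, so both changed mainly above 39 UMIs. Of the Ly6c2 UMIs, 1 cell held 31.7% in the bin of 20 to 39 and 1 cell 38.8% in that of 40 to 79. Bins of 3 to 9, 20 to 39, 40 to 79 and 80 or more hold under 20 cells each. MHC class II and interferon genes took another course: H2-Ab1 reached 5047 CPM (4694 to 5419) in the bin of 10 to 19, where 1 cell held 18.2% of it, and was 2.33-fold lower (2.06 to 2.64) in cells with 40 or more than in those with 10 to 39. Isg15 was 3.0-fold lower (2.51 to 3.60) there. Mmp12 was 2.69-fold lower (2.04 to 3.58), with 29.3% of its UMIs in cells of 10 to 39 held by 1 cell. Ctsd and Ctsl, which had missed 2-fold against C1q-low cells, were 2.53-fold and 2.88-fold higher in cells with 40 or more C1q UMIs. Spi1 differed less, with a ratio of 0.86.

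Across the 75 cells the rank correlation with the C1q sum was 0.48 for Lgmn, 0.47 for Ccl7 and 0.44 for Apoe, and -0.43 for S100a11 and Slc7a11, among 651 genes with at least 100 UMIs. These cells share 1 library, and depth was fixed at 6000 UMIs for the genes but not for the C1q sum. Cells with 80 or more C1q UMIs had a median of 11639 deposited UMIs, against 7251 in those with 10 to 19.

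The Lyz2 minimum left out cells that were as rich in C1q. In all, 121 TEC cells held 10 or more C1q UMIs, 46 of them outside the rule: 14 held a Cd3 UMI, 30 others met every part but had only 1 to 9 Lyz2 UMIs, and 2 failed for another reason. The 30 cells had a median of 49 C1q UMIs (14 to 184), a median depth of 7761 UMIs and a median of 4 Lyz2 UMIs, against 33 in the 75 cells, of which 16 lay close to the minimum with 10 to 19. Their Ms4a7 stood at 1261 CPM, their Lgmn at 2206 CPM and their C1qa at 2894 CPM, and they held Ly6c2 at 1628 CPM and Plac8 at 989 CPM. Relative to the 75 cells Cd300e was 4.02-fold higher in them (2.55 to 6.4), Cd72 3.59-fold (2.85 to 4.52) and the lectin genes Clec4a3 and Clec4a1 2.33-fold and 2.17-fold. Cxcl2 was 3.87-fold lower (3.01 to 5.04), Spp1 2.86-fold (2.09 to 4.0) and Fabp5 2.38-fold (2.09 to 2.70). With the 30 added to the C1q-high cells, 101 genes were at least 2-fold higher and 128 lower than in C1q-low cells.

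C1q-high cells of the tumor and of the normal gland both expressed C1q, and differed 2-fold or more in many other genes. Of the NEC gate 53 of 143 cells were C1q-high (37.1%, 29.1 to 45.5), of the TEC gate 75 of 432 (17.4%, 13.9 to 21.3), at median depths of 3778 and 7531 UMIs in C1q-high cells. The depths differ and the rule counts UMIs, so no order is read from the shares. For levels, all cells were thinned to 2000 UMIs, which left 75 TEC and 46 NEC cells and 646 genes. Of these, 184 were at least 2-fold higher in TEC (28.5%) and 76 at least 2-fold lower (11.8%), with a median log2 ratio of 0.33. Of all 2-fold differences 70.8% were higher in TEC, and 58.1% with median-of-ratios scaling, which set the median to 0.00. With the rule applied to thinned cells, which left 6 TEC and 32 NEC cells, the share was 27.4%, so the balance depends on the setting. The unlike depths also bear on which cells reach the C1q minimum, and their part in the levels was not tested. Library and tissue cannot be told apart here. The C1q chains, as part of the rule, were at 1787 and 3913 CPM for C1qa, 1933 and 3457 CPM for C1qb and 1593 and 1750 CPM for C1qc.

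The genes with the highest ratios had no or few UMIs in the normal cells. Ly6c2 was at 1267 CPM in TEC and had 0 UMIs in NEC C1q-high cells, at least 38.8-fold higher with 3 counts set for the NEC sum. On the same basis Clec4n, for the lectin Dectin-2, was at least 35.8-fold higher, Ly6a 34.8-fold, Ms4a4c 28.6-fold and Mmp12 18.6-fold. Il1b was 76.9-fold higher on 376 and 3 UMIs (26.1 to 374), Fabp5 26.1-fold (15.1 to 49.3) and Plac8 30.4-fold (12.9 to 94.5). Ms4a7 and Fcgr1 had 153 and 129 UMIs in TEC and 1 each in NEC, ratios of 93.8 (16.6 to 3730) and 79.1 (13.9 to 3149). Ms4a7 was thus near 0 in C1q-high cells of the normal gland. Of 4 classical monocyte genes compared 3 were higher and 1, Fn1, lower (median 3.07), and of 9 inflammatory genes 4 were higher and 2 lower, Cxcl1 and Cxcl2 (median 0.65). The UMI minimum for comparison counts both sums, so genes with few NEC UMIs, such as Ly6c2 and Il1b, passed it through TEC. These counts therefore follow in part from the filter. The whole classical monocyte list summed to 4847 CPM in TEC and 3065 CPM in NEC, and the inflammatory list to 9160 and 7478 CPM.

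Genes of several roles were lower in the tumor cells than in the normal ones. Apoe was at 1593 CPM in TEC and 17315 CPM in NEC, 10.9-fold lower (9.48 to 12.5), though it was among the genes that set C1q-high from C1q-low cells within the tumor. Pltp was 12.4-fold lower (6.94 to 24.1), Fn1, for fibronectin, 22.4-fold (12.8 to 43.0), Fcrls, an Fc receptor-like gene, 40.8-fold (10.7 to 346), Mgl2, a lectin gene, 17.6-fold (7.10 to 56.4), and Ltc4s, for leukotriene C4 synthase, 48.4-fold (16.0 to 239). C4b, the complement component gene, had 1 UMI in TEC and 65 in NEC. The metallothionein genes Mt1 and Mt2 were 11.1-fold lower each (9.27 to 13.3 and 7.57 to 16.9), and Tmem176b 26.1-fold (8.41 to 131). Retnla, an alternative activation gene, was at 42793 CPM in NEC C1q-high cells and is listed at 0 for the whole TEC library, so no fold is given. Of 7 resident scavenger genes 5 were lower and 2, Clec4n and Msr1, higher (median -2.29), Folr2 being 4.89-fold lower (2.73 to 9.23), and of 6 MHC class II genes 4 were lower and 0 higher (median -1.25). The type I interferon response list gave 7 higher and 0 lower of 9 (median 2.45). The same counts were 9 and 0 of 10 for glycolysis and hypoxia (median 2.40), 5 and 0 of 5 for the Ms4a family (median 4.84) and 7 and 0 of 10 for Fc receptors (median 1.41). For lysosomes they were 6 and 0 of 17 (median 0.47), close to the 28.5% and 0.33 of all genes. The UMI minimum for comparison counts both sums, and the 10 Ms4a genes together had 689 UMIs in TEC and 21 in NEC. No Ms4a gene could pass it through NEC alone, so their 5 and 0 follow in large part from this filter. It also bears on the interferon, glycolysis and Fc receptor counts. Whole-list sums do not depend on it. They were 4593 CPM in TEC and 228 CPM in NEC for Ms4a, 14753 and 4652 CPM for interferon, and 11107 and 2826 CPM for glycolysis. For Fc receptors they were 13307 and 5130 CPM.

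**Figure D5:**
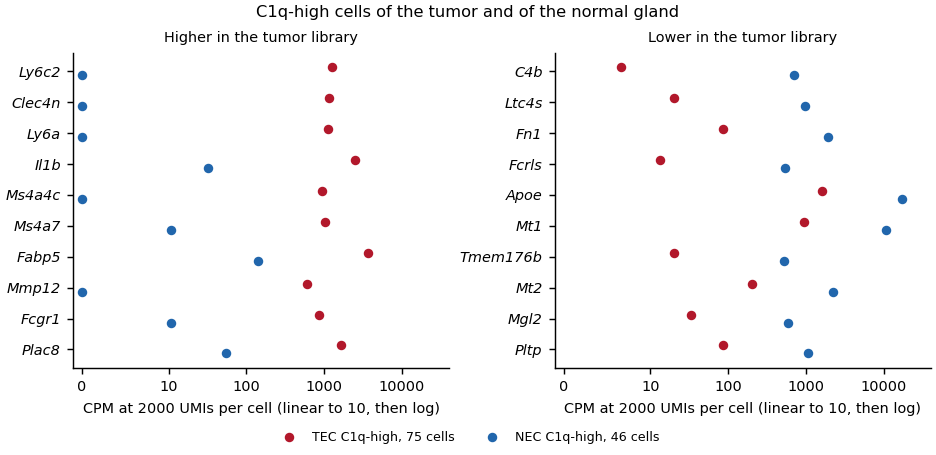
Levels (x axis, CPM at 2000 UMIs per cell, linear up to 10 and logarithmic above) of the 10 genes with the highest and the 10 with the lowest ratio bounds, in C1q-high cells of TEC (red, 75 cells) and of NEC (blue, 46 cells). Apoe lies at 1593 CPM in TEC and 17315 CPM in NEC, and Ly6c2 at 1267 CPM and 0.

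Within the NEC gate the same contrast, 46 C1q-high against 85 C1q-low cells at 2000 UMIs, can be set beside that of the tumor. Apoe was 27.8-fold higher in C1q-high cells of NEC (22.8 to 34.1) and 4.18-fold in TEC, Folr2 22.2-fold (8.12 to 84.7) and 17.7-fold, Timp2 9.91-fold (5.16 to 20.9) and 3.72-fold, Lgmn 3.29-fold (2.01 to 5.48) and 2.03-fold, and Ccl7 3.70-fold (2.36 to 5.89) and 2.41-fold. Plac8 was 45.5-fold lower in NEC, on 5 and 420 UMIs, and 2.42-fold lower in TEC. Lpl had a ratio of 0.81 (0.50 to 1.28) in NEC against 4.09 in TEC, and Cd72 had 0 UMIs in both NEC groups. The differences between these contrasts were not tested.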

How the data were processed

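The authors deposited raw UMI counts, not normalized, with genes in rows and cells in columns. The submitters' processing notes name the mm10 build, Seurat, STAR 2.5.1b and Cell Ranger 2.0.2, without settings. Columns named "tumor" were taken as TEC and "control" as NEC, the latter on the word alone, and 0 columns were left over. A gene without counts in 1 library is listed there at 0, so the comparison between libraries used the 11386 genes with counts in both.

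The rule was applied to counts as deposited. Cells were then thinned at random (seed 1) to 6000 UMIs within TEC and to 2000 between libraries, where shallower cells were left out, and summed to CPM. CPM has exact Poisson intervals, ratios have exact Clopper-Pearson intervals conditional on the gene's total, and shares have exact binomial ones, all at 95%. Genes with at least 50 UMIs over both sums were compared; a sum of 0 was set to 3 counts over the group for a bound. Genes named by rule are the 15 (between libraries 10) with the highest lower bound and as many with the lowest upper bound, leaving out genes of the rule, mitochondrial, ribosomal, hemoglobin, immunoglobulin and Y-linked genes and Xist, and genes of which 1 cell held over 20% of the UMIs of the higher group. Members and all 41 gene lists were chosen with earlier results of these data known. Promoters were read from a RefSeq table and positions from GENCODE. Other thresholds, scalings, seeds and cell filters were run as alternatives. UMIs of near-identical genes (Ly6c2 with Ly6c1 and Ly6i, Lyz2 with Lyz1, Chil3, Serpinb6a) may be split wrongly. Cells called doublets were kept. Some genes of the lists are not reported here. Software was Python 3.11.15, numpy 2.4.6, pandas 2.3.3, scipy 1.17.1, scanpy 1.11.5 (Scrublet) and matplotlib 3.10.9.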

Additional observations from a re-analysis of the deposited data

Results flagged for a closer look

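Cxcl1, a neutrophil-attracting chemokine gene, differed between C1q-high and C1q-low cells in opposite directions in the 2 libraries: its ratio was 0.150 in TEC and 7.28 in NEC. With a single library per group, this difference was not tested. In TEC it had 3 UMIs in C1q-high cells, and 1 C1q-low cell held 33.7% of the 95 UMIs there. In NEC 1 cell held 46.0% of the 63 UMIs of C1q-high cells.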

How the results depend on the processing

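No paired analysis was possible because there is only a single library on either side. Within TEC, 80 genes were higher and 148 lower of 4374 compared. These counts were 148 and 349 of 4150 with C1q-high from 30 UMIs, and 177 and 430 of 4107 from 40 UMIs (added after seeing the data). They were 255 and 425 of 6633 with a minimum of 20 UMIs and 19 and 28 of 1654 with 200. Without cells holding a UMI of other cell types they were 31 and 85 of 2272. Between libraries, 184 genes were higher and 76 lower; these were 499 and 162 with a minimum of 20 UMIs, 33 and 20 with 200, 697 and 193 without thinning, and 756 and 211 as the mean of per-cell CPM of unthinned cells (added later). With the rule applied to thinned cells, which left 6 TEC and 32 NEC cells, 20 genes were higher and 53 lower of 224. There 27.4% of the calls were higher in TEC, and the median log2 ratio was -0.17. Without cells holding a UMI of other types, 80 genes were higher and 54 lower of 360. Between libraries the chemokine median, 1.76, turned to -1.06 with the rule on thinned cells and to -0.43 without cells holding a UMI of other types; the cause was not tested. Within TEC the MHC class II median, 0.26, was -0.40 with C1q-high from 40 UMIs. The 20 genes named between libraries were past 2-fold in each setting run on them, 11 settings each and 10 for Mmp12, but their ratios varied: Tmem176b from 0.0118 to 0.457, C4b from 0.00631 to 0.127, Mmp12 from 2.66 to 46.8 and Il1b from 17.8 to 247. Without the cell richest in the gene (added later), 8 of 26 higher and 1 of 18 lower list genes within TEC were no longer 2-fold, and the ratio of Procr, 2.48, turned to 0.979; between libraries 1 of 73 and 2 of 22 were no longer 2-fold. The mean of per-cell CPM on thinned cells equals the summed value by construction. Depth limits low genes: one with 50 UMIs would have 8.68 of them in C1q-high cells if levels were equal.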

Other observations

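Among C1q-high cells, ribosomal protein genes (94 genes) took up more of the UMIs in those with more C1q. Their share was 14.6% in cells with 10 to 14 C1q UMIs, 16.3% in those with 10 to 39, 19.6% in those with 40 or more and 17.8% in cells with 0 to 2. Single cells spread widely: the quartiles were 12.3% and 19% in cells with 10 to 39 and 16.6% and 22.7% in cells with 40 or more. Mitochondrial UMIs were 1.5% and 1.6% in these 2 groups.

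Cell-cycle genes were present in most C1q-high cells, at low summed levels. S-phase genes (21 genes) summed to 262 CPM (217 to 314) against 204 CPM (186 to 225) in C1q-low cells, and G2 and M phase genes (25 genes) to 638 and 682 CPM. A UMI of the S-phase list was present in 57 of 75 C1q-high and 225 of 357 C1q-low cells, and of the G2 and M list in 68 and 340. Mki67 was at 0 in C1q-high cells. Top2a had 4 UMIs in those with 40 or more C1q UMIs and 0 in those with 10 to 39.

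Among C1q-high cells, Trem2 and Apoe were present together in 24 cells, Trem2 without Apoe in 12, Apoe without Trem2 in 27 and neither in 12. Folr2 and Mrc1 were present together in 9 cells, Folr2 alone in 7, Mrc1 alone in 19 and neither in 40. In cells with 40 or more C1q UMIs Trem2 and Apoe were together in 19 of 33, and in those with 10 to 39 in 5 of 42. At this depth a missing UMI does not show that a gene is off.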
